A study of Mus musculus with 4 samples.

Results

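Interferon-stimulated genes are the genes that cells switch on when interferons reach their receptors. The 9 described here are *Stat2*, *Irf1* and *Irf7*, which encode transcription factors of the pathway, *Isg15*, *Ifit3* and *Bst2*, which encode antiviral effectors, *Gbp2*, which encodes an interferon-induced GTPase, and *Cxcl9* and *Cxcl10*, which encode chemokines. They were chosen by name as listed interferon response genes, though with earlier results of these data known. The choice was made out of 10922 genes listed in at least 1 set of values. All 9 were listed in whole tumor with Control SMO, 8 were listed in whole tumor with LFPRLR SMO, and 2 were listed for tumor Tregs. On both measures of level, a sum over transcripts and a value weighted by exon length, the LFPRLR SMO library held more *Cxcl9* and *Ifit3* and less *Stat2*, *Isg15* and *Bst2* than the Control SMO library, and *Cxcl10* was listed with Control SMO alone. The *Isg15* ratio lay close to that of the median gene on both measures. For *Irf1*, *Irf7* and *Gbp2*, each assembled into different transcripts in the 2 libraries, the measures gave opposite directions. None of the 8 genes with a ratio differed by a factor of 2 on both measures, which 1.25% of all genes did upwards and 3.09% downwards.

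The tumors grew from 4T1 cells, a line derived from a Balb/c mammary carcinoma, injected into the mammary fat pad of female Foxp3+EGFP Balb/c mice, in which EGFP is driven by the *Foxp3* promoter. The mice received either a Control SMO, which has no target in mouse, or an LFPRLR SMO for 12 days. A splice modulating oligomer (SMO) is an antisense molecule that binds pre-mRNA at an intron-exon junction, and the LFPRLR SMO is directed at the long form of the prolactin receptor. RNAseq was made from whole tumor with Control SMO, whole tumor with LFPRLR SMO, and tumor Tregs sorted by Foxp3-EGFP from a further set of mice under each treatment. All 4 groups therefore share the strain, the reporter, the tumor line and the delivery of an oligomer, and no group without tumor or without oligomer was analysed here. RNA of 6 mice was combined per group, so each group was 1 library, no value has a replicate error, and every ratio describes a pair of libraries and not the treatments.

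The files give transcripts with an FPKM, a level in fragments scaled by the length of the transcript and the size of the library, and no read counts. The whole tumor lists held 22481 transcripts with Control SMO against 31908 with LFPRLR SMO, which gave values for 9561 and 9660 genes. A transcript at 1 FPKM had reads over it to a mean depth of 1.88 and 1.75, in the same order. The transcript list labelled tumor Treg with LFPRLR SMO was equal to that labelled Control SMO in 4838 of 4838 transcripts, so these were counted as 1 set and no ratio between treatments could be taken for tumor Tregs. Against its label, the tumor Treg set held none of 18 T cell markers, *Foxp3*, *Cd4*, *Il2ra* and the CD3 genes among them. It held 18 of 20 monocyte and macrophage markers, with an exon-weighted level (defined below) of 205 FPKM for the lipid carrier gene *Apoe*. It is called the tumor Treg set here only after its label.

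Interferons of type I signal through the receptor pair IFNAR1 and IFNAR2, and interferon gamma through IFNGR1 and IFNGR2. Janus kinases at these receptors phosphorylate STAT proteins. STAT2 and IRF9 are parts of the complex ISGF3, which binds the interferon-stimulated response element (ISRE), whereas the response to interferon gamma also runs through the gamma-activated site (GAS). In tumors these genes are known as a readout of interferon made by immune or tumor cells, and the chemokines among them are known to attract T cells and NK cells that carry CXCR3.

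Promoter stretches are shown because ISRE and GAS are the elements through which the pathway is known to reach its target genes. All 9 genes matched the RefSeq table of GRCm38.p6, which holds the 250 bases before and 50 bases after a gene's start. The letters of an ISRE, searched on both strands as GAAA, then any 2 bases, then GAAA, stood in the window of 6 of the 9 genes (66.7%), against 3.99% of 27025 genes with a window and 38.1% of 126 other genes of interferon signaling. The letters of a GAS, TTCNNNGAA, searched on both strands, stood in 2 of the 9 (22.2%), against 9.55% of all genes and 26.2% of the other pathway genes. Matched letters are in capitals below, with 20 bases on either side, in the 5′ to 3′ direction of the gene. The *Stat2*, *Ifit3* and *Gbp2* matches are on the opposite strand and therefore read as the reverse complement.
Stat2, chr10:128270256-128270305, plus strand: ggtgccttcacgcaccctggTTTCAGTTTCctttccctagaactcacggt
Irf1, chr11:53769904-53769952, plus strand: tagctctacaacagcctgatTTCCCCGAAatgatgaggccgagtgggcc
Isg15, chr4:156200855-156200916, minus strand: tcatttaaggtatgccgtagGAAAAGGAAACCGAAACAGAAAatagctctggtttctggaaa
Ifit3, chr19:34583353-34583436, plus strand: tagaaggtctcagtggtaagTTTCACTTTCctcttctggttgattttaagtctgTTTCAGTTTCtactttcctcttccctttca
Cxcl10, chr5:92349073-92349122, minus strand: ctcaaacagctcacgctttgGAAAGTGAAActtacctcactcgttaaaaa
Gbp2, chr3:142620584-142620633, plus strand: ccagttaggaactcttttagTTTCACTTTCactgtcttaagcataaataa
Bst2, chr8:71537567-71537628, minus strand: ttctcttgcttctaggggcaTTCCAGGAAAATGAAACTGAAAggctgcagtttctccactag

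*Isg15* had 3 overlapping ISRE matches, from 78 to 57 bases before its RefSeq start. *Bst2* had 2 overlapping ISRE matches, the first of which also overlapped its GAS match, all between 136 and 115 bases before the start. *Ifit3* had 2 separate ISRE matches, the first beginning 156 bases and the second ending 113 bases before the start. *Stat2* and *Cxcl10* had 1 each, at 222 to 213 and at 213 to 204 bases before the start. The single match of *Gbp2*, at 59 to 50 bases before its RefSeq start, lay within the first exon of the GENCODE model, which begins further upstream. *Irf1* had a GAS match at 90 to 82 bases before the start and no ISRE letters. *Irf7* and *Cxcl9* had neither set of letters in their windows. These matches describe sequence and are not evidence of binding.

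Each gene was measured in 2 ways. The FPKM sum adds the FPKM of all transcripts of at least 300 bases assigned to the gene, so a message assembled in pieces is counted once per piece. The exon-weighted value multiplies each FPKM by the exon bases shared with the gene and divides by the gene's longest annotated transcript, so pieces add up to a whole and missing pieces lower the value. It takes in every transcript that shares exon bases with the gene, of any length and also where assigned to another gene. For some genes it can therefore exceed the FPKM sum. Depths given below for a gene spread the mean depth deposited for each transcript evenly over its exons, and uncovered bases lower them. They are not depths measured base by base and are not scaled between the libraries. A ratio is LFPRLR SMO over Control SMO, on a log2 scale with no pseudocount, for genes at 1 FPKM or more in at least 1 library. In bulk tissue, fewer cells of a type and less RNA per cell cannot be told apart.

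**Figure D1:**
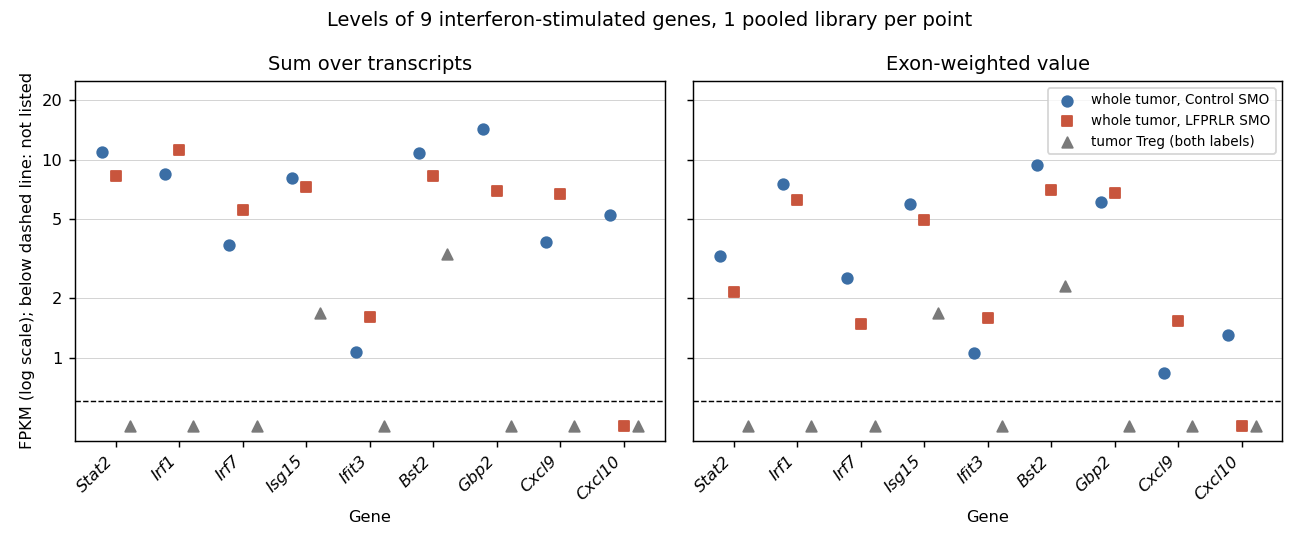
FPKM of the 9 genes on a log axis, as the sum over transcripts (left) and as the exon-weighted value (right), in whole tumor with Control SMO (circles), whole tumor with LFPRLR SMO (squares) and the tumor Treg set (triangles). Each point is 1 pooled library, and points below the dashed line mark genes not listed, which were 1 of 9 with LFPRLR SMO and 7 of 9 in the tumor Treg set.

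Among the 8 genes with a ratio, the FPKM sum was higher with LFPRLR SMO in 4 and lower in 4, with a median log2 ratio of 0.12, against -0.09 over 8658 genes. By the exon-weighted value it was higher in 3 and lower in 5, with a median of -0.27, against -0.17 over 8269 genes. No member was higher by a factor of 2 on the FPKM sum, and 1 was lower, *Gbp2*. Of all genes, 11.7% passed that factor upwards and 10.9% downwards. On the exon-weighted value 0 of 8 passed the factor in either direction, where 2.45% of all genes were higher and 6.28% were lower. All 8 FPKM sum ratios lay between the 5th and 95th percentile of all genes, as did 7 of 8 exon-weighted ratios, *Cxcl9* being the exception at percentile 96.8. The measures gave opposite directions for 3 of 8 members (37.5%), against 27.4% of 7734 genes with both.

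*Stat2* (chr10:128270559-128292849, plus strand) encodes the STAT that brings the activation domain to ISGF3. Its FPKM sum was 10.9 with Control SMO against 8.28 with LFPRLR SMO, and its exon-weighted value was 3.28 and 2.14. The LFPRLR SMO library was the lower one on both, with log2 ratios of -0.40 and -0.61. The message was assembled in 4 pieces with Control SMO against 3 with LFPRLR SMO, which together spanned 20 and 14 of the 23 introns and 90.0% and 81.0% of the 4394 bases of the principal coding transcript. Mean read depth over the coding sequence was 5.27 and 3.26, and over the 3′ UTR 7.46 and 4.17. With transcripts assigned by a shared intron alone, which drops the single-exon 3′ piece of the LFPRLR SMO library, the log2 ratio was -1.06.

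*Irf1* (chr11:53770014-53778374, plus strand) encodes a transcription factor induced by interferon gamma through its GAS, and it carried the only GAS match without ISRE letters. The FPKM sum was 8.48 with Control SMO against 11.2 with LFPRLR SMO, whereas the exon-weighted value was 7.53 and 6.25. The log2 ratios were therefore of opposite sign, at 0.40 and -0.27. With Control SMO, 1 transcript held all 9 introns. With LFPRLR SMO there were 3 transcripts, which together held 8 of the 9 introns and had 324, 528 and 505 bases outside annotated exons. The longest of them overlapped both others, and the assembly began 176 bases before the annotated start. Mean depth, spread evenly over each transcript, was 16.0 and 14.1 over the coding sequence. Over the 3′ UTR, of which 75.5% and 77.8% was covered, it was 12.1 and 6.00.

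*Irf7* (chr7:141262706-141266481, minus strand) encodes the factor that amplifies type I interferon production. Its FPKM sum was 3.69 with Control SMO, from 1 transcript, and 5.54 with LFPRLR SMO, from 2 pieces that did not overlap and had 2.67 and 2.87. The exon-weighted value was 2.51 and 1.48. The log2 ratio was 0.59 on the sum and -0.76 on the exon-weighted value, so adding the pieces and weighting them gave opposite signs. The principal coding transcript is shorter than the longest annotated one, and weighted by it the values were 3.54 and 2.50, with a log2 ratio of -0.50. Read depth over the coding sequence was 6.98 and 4.44, and 7 of 9 introns were found in each library.

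*Isg15* (chr4:156199424-156200818, minus strand) encodes a ubiquitin-like protein that is joined to other proteins or secreted, and its promoter had 3 of the ISRE matches shown above. The FPKM sum was 8.11 with Control SMO, 7.25 with LFPRLR SMO and 1.68 in the tumor Treg set. The exon-weighted value was 5.99, 4.97 and 1.68, in the same order. The whole tumor libraries differed by log2 ratios of -0.16 and -0.27, at percentile 45.4 and 39.6 of all genes, whose medians were -0.09 and -0.17. In both, 1 transcript held the intron and covered none of the 160 bases of the 3′ UTR. The tumor Treg transcript came from a different program, carried the gene symbol and had exactly the annotated ends and 756 bases, at a depth of 1.59. Whether reads reached its whole length is not known, so its extent cannot be set against theirs. The authors' 95% bounds on its FPKM were 3.36 to 7.69 with Control SMO and 2.75 to 7.45 with LFPRLR SMO. These overlapped, and the Control SMO value lay outside its own bounds.

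*Ifit3* (chr19:34583531-34588731, plus strand) encodes a tetratricopeptide protein that stabilises a complex on foreign RNA. It was the lowest of the listed members on the FPKM sum in both whole tumor libraries, at 1.07 with Control SMO against 1.60 with LFPRLR SMO. The exon-weighted value was 1.05 and 1.58. Each library held 1 transcript, of 1721 and 1725 bases, which covered 98.6% and 98.9% of 1745 bases. The measures gave almost the same log2 ratio, 0.58 and 0.59. The bounds of 0.590 to 1.54 and 0.973 to 2.19 overlapped. *Ifit3b*, a near-identical neighbour that can share reads with *Ifit3*, had an FPKM sum of 1.07 and 1.54, so the split of reads between the pair is uncertain.

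*Bst2* (chr8:71534255-71537456, minus strand) encodes tetherin, which holds budding virus at the cell surface. Its FPKM sum was 10.8 with Control SMO, 8.28 with LFPRLR SMO and 3.34 in the tumor Treg set, and its exon-weighted value was 9.41, 7.06 and 2.30. The whole tumor log2 ratio was -0.38 on the sum and -0.42 on the exon-weighted value, with bounds of 5.66 to 10.9 and 4.10 to 8.70 that overlapped. These ratios stood at percentile 32.1 and 27.3 of all genes. All 4 introns were found in each whole tumor library, and 3 of 4 in the tumor Treg set. On the exon-weighted value *Bst2* was the highest of the 9 in all 3 sets.

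*Gbp2* (chr3:142620602-142638008, plus strand) encodes a guanylate-binding protein that acts on intracellular pathogens. The FPKM sum was 14.3 with Control SMO against 6.95 with LFPRLR SMO, a log2 ratio of -1.04 and the only one past a factor of 2. The exon-weighted value was 6.13 and 6.75, a log2 ratio of 0.14 in the other direction. With Control SMO the message was assembled as a 5′ part of 10 exons at 5.36 FPKM and a separate last part of 678 bases at 8.92 FPKM, which lay outside its own bounds of 4.49 to 8.63. With LFPRLR SMO there were 2 long overlapping transcripts, at 5.44 and 1.51 FPKM, which together held 10 of 10 introns. Mean read depth over the whole coding transcript was 11.3 and 11.8. The Gbp genes form a family of similar sequence, so reads may be split among them.

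*Cxcl9* (chr5:92321347-92328079, minus strand) encodes a CXCR3 ligand induced chiefly by interferon gamma. Its FPKM sum was 3.86 with Control SMO against 6.75 with LFPRLR SMO, and its exon-weighted value was 0.834 and 1.52. The LFPRLR SMO library was 1.75 times and 1.82 times as high, with log2 ratios of 0.81 and 0.87, at percentile 84.1 and 96.8 of all genes. Both libraries held 1 transcript with all 3 introns and the whole coding sequence, at a mean read depth of 7.25 and 12.0. Of the 2452 bases of the 3′ UTR, 8.12% and 9.22% were covered. The bounds on the FPKM were 1.50 to 4.62 and 3.22 to 7.46 and overlapped.

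*Cxcl10* (chr5:92346638-92348889, minus strand) encodes a second CXCR3 ligand and lies 18558 bases from *Cxcl9*. It had an FPKM sum of 5.26 and an exon-weighted value of 1.30 with Control SMO, and was not listed with LFPRLR SMO or in the tumor Treg set. The Control SMO value came from 1 unspliced transcript of 552 bases that lay wholly in the 3′ UTR, covering 75.7% of it, with 0 of 3 introns. No fold is given against a library in which the gene is not listed, and it is not shown to be unexpressed there. Among 3380 LFPRLR SMO transcripts within 20% of 552 bases in length, the lowest listed FPKM was 1.42, the median was 3.53, and 79.1% were below 5.26. Of 9406 genes at 1 FPKM or more with Control SMO, 8.68% were likewise not listed with LFPRLR SMO. CXCR3, the receptor of both chemokines, had no listed transcript of its gene *Cxcr3* in any set.

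**Figure D2:**
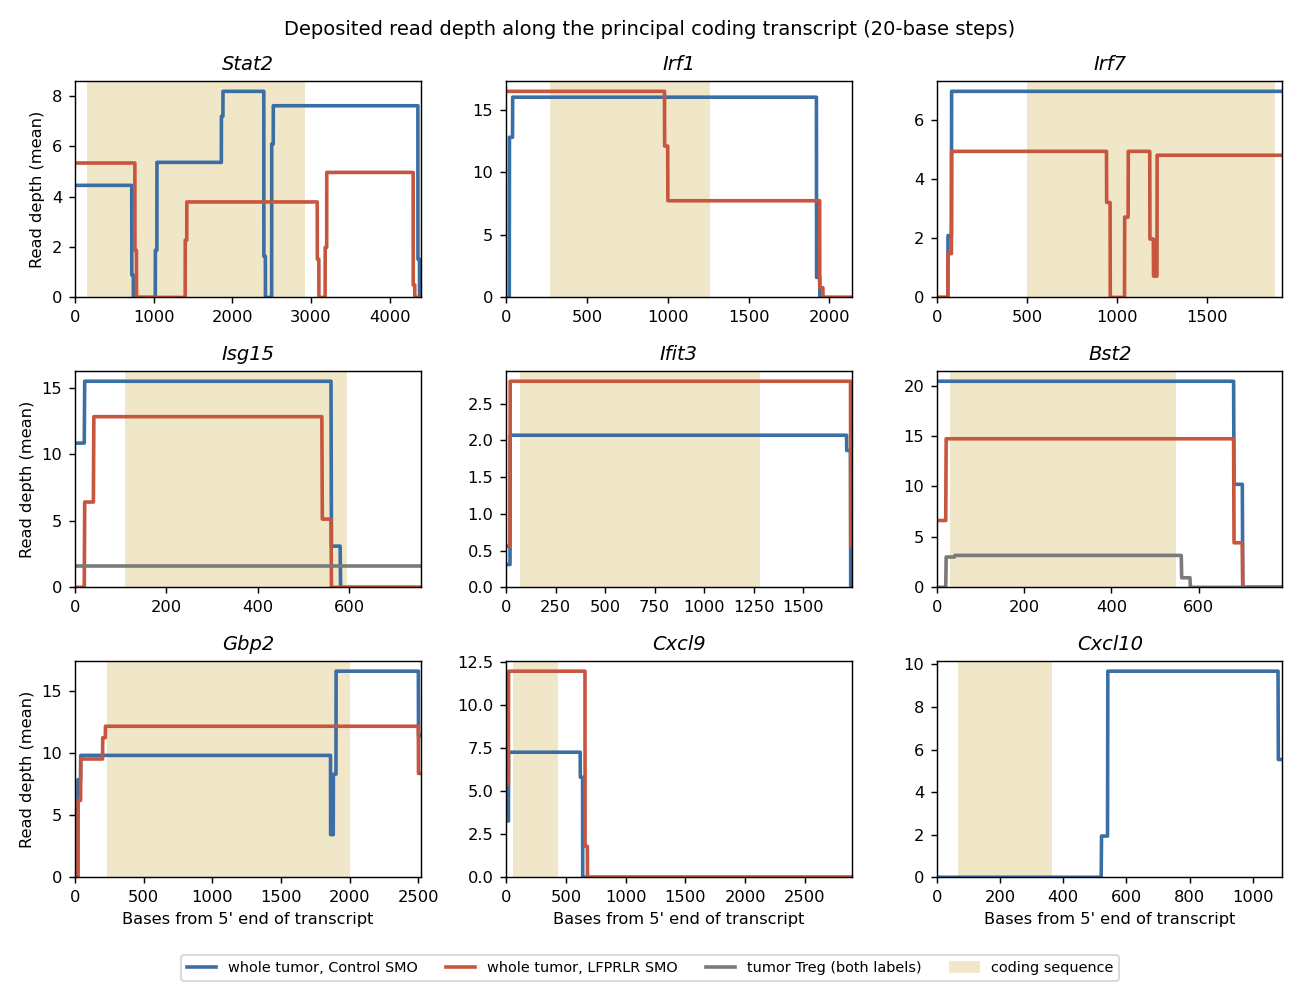
Mean read depth in steps of 20 bases along the principal coding transcript of each of the 9 genes, in bases from its 5′ end, for whole tumor with Control SMO (blue), whole tumor with LFPRLR SMO (red) and the tumor Treg set (grey), with the coding sequence shaded. Depth is that deposited per assembled transcript, so each step is the end of a piece: *Gbp2* has a higher last part with Control SMO, *Irf7* and *Stat2* have gaps, *Cxcl9* ends early in its 3′ UTR, and *Cxcl10* is covered only in its 3′ UTR and only with Control SMO.

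Order among the 9 genes can be read only per length, and on the exon-weighted value it ran with Control SMO from *Bst2* at 9.41 through *Irf1*, *Gbp2*, *Isg15*, *Stat2*, *Irf7*, *Cxcl10* and *Ifit3* to *Cxcl9* at 0.834. With LFPRLR SMO it ran from *Bst2* at 7.06 through *Gbp2*, *Irf1*, *Isg15*, *Stat2*, *Ifit3* and *Cxcl9* to *Irf7* at 1.48. The place of genes whose longest annotated transcript is not the principal coding one depends on the choice between them. Weighted by the latter, *Irf7* was at 2.50 FPKM with LFPRLR SMO, above *Stat2* at 2.13, and *Cxcl10* was at 2.65 with Control SMO. The last place of *Cxcl9* with Control SMO rests on missing pieces as well, since 21.6% of its 2889 bases were covered. Its FPKM sum there, 3.86, was above those of *Irf7*, 3.69, and *Ifit3*, 1.07, and below those of the other genes. With 1 library each, no spread is known by which to tell neighbours in these orders apart. Of the 27 whole tumor transcripts of these genes, 25 had an FPKM within the deposited bounds. The authors' bounds are set beside the values as deposited and were not used as replicate errors.

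In the tumor Treg set, *Isg15* and *Bst2* stood at percentile 24.7 and 52.1 of 3083 listed genes on the FPKM sum, and at 57.2 and 64.7 of genes with an exon-weighted value. The other 7 genes were not listed and are not shown to be unexpressed. The study reports *Cxcl9* and *Cxcl10* as raised and *Cxcr3* as lowered in tumor Tregs with LFPRLR SMO, whereas the tumor Treg set lists none of them. Whole tumor and tumor Treg values were made by different programs and normalized separately, so these levels are set side by side only as a description. Over the 3 sets, the gene nearest to *Isg15* in exon-weighted values, among 2543 genes listed in all, was *Sdha*, with 6.22, 4.70 and 1.67 FPKM at a Euclidean distance of 0.098 in log2 units. The gene nearest to *Bst2* was *Mta2*, with 9.20, 6.74 and 2.39 FPKM at a distance of 0.093. Both likenesses rest on 3 values.

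The rest of the pathway was taken from lists by role, 164 genes without the 9. Of these, 123 were listed with Control SMO, 118 with LFPRLR SMO and 42 in the tumor Treg set. On the FPKM sum, 15 of 113 passed the factor of 2 upwards and 10 downwards, with a median log2 ratio of 0.05. On the exon-weighted value, 1 of 104 was higher and 6 were lower, with a median of -0.25. The gene that was higher was *Tgtp2*, and those that were lower were *Irf8*, *Ifi203*, *Irgm1*, *Ccl12*, *Psmb9* and *Tap1*. *Irf8* and *Irgm1* did not pass on the FPKM sum, with log2 ratios of -0.48 and -0.62. On both measures 1 of 104 was higher and 4 were lower, where 1.25% and 3.09% of 7734 genes were. The medians of all genes, given above, were -0.09 and -0.17, and the shares past the factor were 11.7% and 10.9% on the sum and 2.45% and 6.28% on the exon-weighted value. The values that follow are exon-weighted unless the FPKM sum is named, with Control SMO first. Of the genes named by level or ratio, *Tbk1*, *Ddx58*, *Tlr3* and *Psme1* were lower on the exon-weighted value but not on the sum. Their log2 ratios on the sum were 0.22, 0.62, 0.07 and 0.52. *Ifngr1* had a log2 ratio of 0.85 on the sum, against 0.04 on the exon-weighted value.

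None of 20 interferon ligand genes, type I, II and III, was listed in any set, and they are not shown to be unexpressed. Of 6 receptor genes 5 were listed in both whole tumor libraries, and 0 of 5 passed the factor. *Ifngr1*, of the interferon gamma receptor, was at 5.50 and 5.66 FPKM, and *Ifnar1*, of the type I receptor, at 4.48 and 3.66. *Ifnar2*, its partner, was at 4.60 and 2.95, the largest ratio of the group at -0.64 on the log2 scale. Of 12 kinases, STATs and inhibitors, 12 and 11 were listed and 0 of 10 passed. The kinase gene *Jak2* was at 14.7 and 9.34 FPKM, a log2 ratio of -0.66, and *Jak1* at 9.09 and 9.57. *Irf9*, of the ISGF3 complex, which was singled out after its values were seen, was at 1.96 and 1.98.

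Of 9 genes of the IRF family and its binding partners, 8 were listed in both, and 1 of 8 passed the factor. This was *Irf8*, a factor of myeloid development, at 2.20 and 0.695 FPKM. The corepressor genes *Irf2bp2* and *Irf2bpl* were at 10.4 and 9.14 and at 5.24 and 5.44. Of 16 nucleic acid sensors and adaptors, 15 and 13 were listed and 0 of 9 passed. *Tbk1*, which encodes the kinase that phosphorylates IRF3, was at 5.16 and 3.72, *Ddx58*, which encodes the RNA sensor RIG-I, at 3.81 and 3.72, and the RNA receptor gene *Tlr3* at 3.71 and 2.09.

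Of 62 antiviral effectors, 53 and 51 were listed, and 0 of 47 were higher and 1 was lower. The lower one was *Ifi203*, of the interferon-inducible p200 family, at 47.7 and 19.1 FPKM, a log2 ratio of -1.32, in a family whose similar members can share reads. *Ifitm3*, which blocks virus entry, was at 38.0 and 26.6, a log2 ratio of -0.52 that did not pass. All 3 genes of ISG15 conjugation were listed. The E2 enzyme gene *Ube2l6* was at 2.89 and 1.87 and the ligase gene *Herc6* at 2.28 and 2.22, beside 5.99 and 4.97 for *Isg15* itself.

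Of 17 other interferon-induced GTPases, 13 and 14 were listed, and of 11 with a ratio 1 was higher and 1 was lower. *Tgtp2* was at 2.25 and 7.64 FPKM, a log2 ratio of 1.76, and has a near-identical copy, *Tgtp1*, that was not listed, so the assignment between the pair is uncertain. *Irgm1*, of the immunity-related GTPases that act on vacuoles of intracellular bacteria, was at 3.66 and 1.43. *Gbp2b*, a close relative of *Gbp2*, was at 5.93 and 6.54, a log2 ratio of 0.14, as that of *Gbp2* was. Of the 7 other chemokine and receptor genes, 3 were listed in each library. *Ccl12*, a ligand of CCR2, was at 16.2 and 7.87 FPKM and *Ccl8*, which draws monocytes, at 8.52 and 14.2, log2 ratios of -1.04 and 0.74. Of 12 genes of antigen processing, 11 and 10 were listed, and 0 of 10 were higher and 2 were lower. The class I light chain gene *B2m* was at 277 and 171 FPKM, the proteasome activator gene *Psme1* at 22.6 and 16.3, the peptide transporter gene *Tap1* at 1.04 and 0.378 and the immunoproteasome gene *Psmb9* at 1.32 and 0.587.

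**Figure D3:**
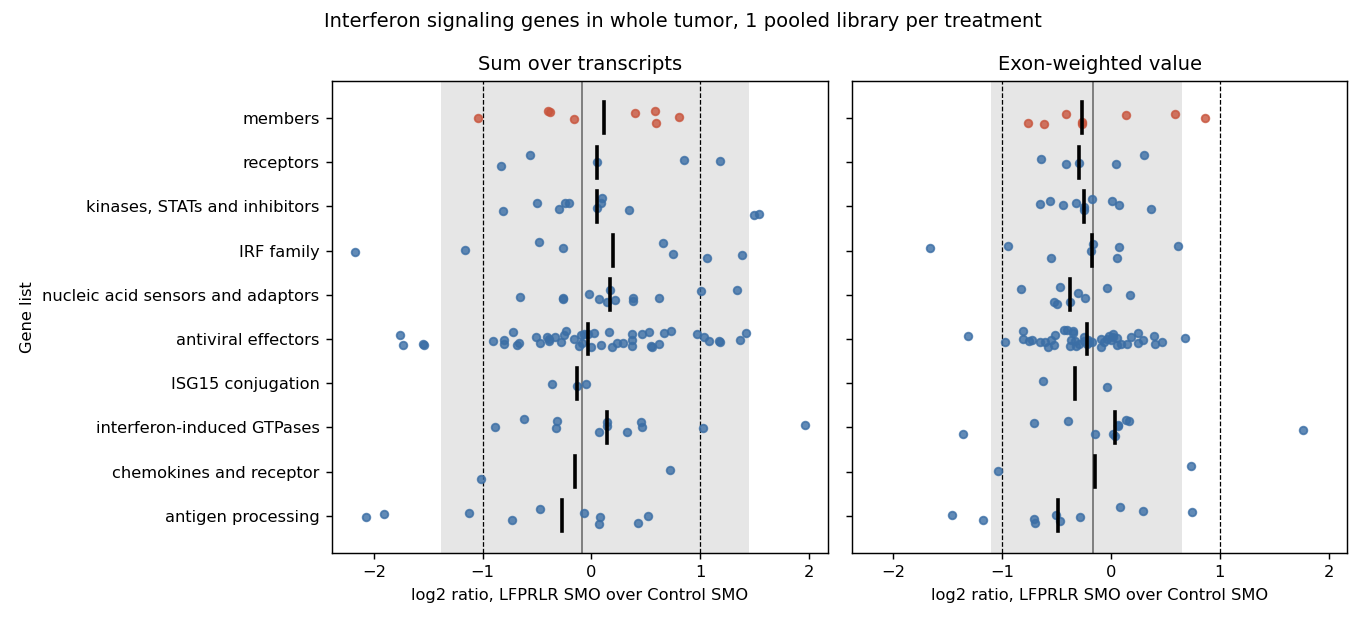
log2 ratio of LFPRLR SMO over Control SMO in whole tumor for the 9 genes (red, members) and for the other genes of interferon signaling by role (blue), from the FPKM sum (left) and the exon-weighted value (right). Each point is 1 gene, short black bars are list medians, the grey line and band are the median and the 5th to 95th percentile of all genes, and dashed lines mark a factor of 2. The points of most lists lie within the band, and on the exon-weighted value 7 of the 104 other pathway genes lie past a dashed line.

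Beside *Cxcl10*, 10 pathway genes were listed with Control SMO alone, among them *Rsad2*, *Cmpk2*, *Gbp5*, *Ccl5* and *Cd274*, and 5 with LFPRLR SMO alone, namely *Oas2*, *Xaf1*, *Gbp10*, *Ifi47* and *Ccl7*. Their FPKM sums ran from 0.909 for *Socs1* to 4.01 for *Aim2* with Control SMO, and from 1.34 for *Oas2* to 9.50 for *Ifi47* with LFPRLR SMO. Among all genes at 1 FPKM or more, 8.68% of those with Control SMO and 9.79% of those with LFPRLR SMO were not listed in the other library.

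Markers of the cells that a tumor can hold were set side by side on the exon-weighted value. Of 20 monocyte and macrophage markers, 20 were listed with Control SMO against 19 with LFPRLR SMO, and their summed exon-weighted level was 520 and 347 FPKM, with *Apoe* at 182 and 106 and *Lyz2*, the gene of a lysozyme, at 105 and 69.1. Their median log2 ratio was -0.59. By a factor of 2, 2 of 18 were higher, *Cd163* and *Ccr2*, and 1 was lower, *Fcgr1*. Of all genes, 2.45% were higher and 6.28% lower. On the FPKM sum 0 of 19 markers were higher and 4 were lower, against 11.7% and 10.9% of all genes. The summed level of these markers was lower with LFPRLR SMO, as were the levels of *Stat2*, *Isg15* and *Bst2*, while those of *Ifit3* and *Cxcl9* were higher. No T cell marker of 18 was listed in whole tumor, although the study detected Tregs in such tumors at day 12 by flow cytometry. Genes not listed are not shown to be unexpressed. Of 10 NK cell markers 1 was listed, *Eomes*, at 0.288 and 0.348. Of 13 dendritic cell markers 3 were listed, led by *Tcf4* at 11.1 and 11.9 and by *Bst2* itself, whereas *Flt3*, *Xcr1*, *Clec9a* and *Siglech* were not listed.

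Of 10 neutrophil markers 3 were listed, led by *S100a9* at 17.5 and 23.8 and *S100a8* at 9.63 and 9.17. The list summed to 30.3 and 34.2, which takes in 2.42 with Control SMO for *Cxcr2*, a gene with no FPKM sum there. Epithelial markers, which carcinoma cells such as 4T1 can express, summed to 273 and 245 over 11 of 12, led by the keratin genes *Krt18* at 118 and 108 and *Krt8* at 50.8 and 43.9. Fibroblast markers summed to 211 and 244 over 9 of 10, led by the collagen genes *Col1a1* at 53.8 and 79.6 and *Col3a1* at 49.0 and 60.3. Endothelial markers summed to 25.2 and 21.8 over 8 of 10, led by *Cdh5* at 6.83 and 7.54 and *Eng* at 5.60 and 4.50. On the FPKM sum, the epithelial and fibroblast totals went the other way, at 313 and 317 and at 892 and 884. So did the dendritic cell total, 21.8 and 20.6 on the exon-weighted value and 46.2 and 67.5 on the sum. The macrophage, neutrophil and endothelial totals kept their direction, at 705 and 470, 35.2 and 52.1, and 46.0 and 36.7. The part of these cell types in the levels of the 9 genes was not tested.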

How the data were processed

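Per the labels and the methods of the study, rRNA was depleted from RNA pooled from 6 mice per group. Tools in the notes of the submitters are Cuffdiff 2.0.2, HISAT2 2.0.4, StringTie 1.2.3 and Cufflinks (version not given in the sources used here). The authors deposited transcripts on mm10 with an FPKM and a mean read depth each, for whole tumor from Cufflinks with 95% bounds and no gene name, and for tumor Tregs from StringTie, partly with gene symbols. The deposited score was not used, and the depth in reads is unknown.

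Gene assignment used GENCODE M21 (GRCm38) and went by symbol, by at least 1 shared intron or by 50% of exon bases, on a compatible strand. In whole tumor, 14806 (Control SMO) and 14754 (LFPRLR SMO) transcripts were placed by intron and 3860 and 5488 by exon bases, and 3815 and 11666 had no gene. Ratios used genes listed in both libraries at 1 FPKM or more in at least 1, and a factor of 2. No test was made, since each group is 1 library. The counting was tested on simulated data. Sequences were read from RefSeq (GRCm38.p6). The software was Python 3.11.15 with numpy 2.4.6, and matplotlib 3.10.9 for plots.

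The 9 genes and all lists were chosen with earlier results of these data known. Named pathway genes were, per role, the 2 at the highest mean exon-weighted value and the 1 with the largest ratio. Named markers were the 2 at the highest level per list. Other genes named, such as those past the factor or listed once, were chosen after their values were seen. The effect of 11 other settings is given in the closing section, and of 1 chosen after seeing the data, weighting by the principal coding transcript.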

Additional observations from a re-analysis of the deposited data

How the results depend on the processing

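Each of the 8 genes with a ratio was recomputed under the other settings. Taking transcripts of all lengths, no minimum FPKM or a minimum of 5 returned the same ratio of these genes (except that *Ifit3* did not reach 5), and centring and TPM add 1 constant to every gene, so these settings are no independent check of direction. Over all settings the log2 ratio ran from -1.06 to -0.25 for *Stat2*, -0.27 to -0.01 for *Isg15*, -0.42 to -0.23 for *Bst2*, 0.33 to 0.73 for *Ifit3* and 0.67 to 0.96 for *Cxcl9*. *Irf1* and *Irf7* were negative with the exon-weighted value (-0.27 and -0.76), the most abundant transcript only (-0.31 and -0.36) and weighting by the principal coding transcript (-0.27 and -0.50), and positive with the other settings, up to 0.55 and 0.74. *Gbp2*, at -1.04, turned to 0.14 with the exon-weighted value or weighting by the principal coding transcript and to 0.37 with a shared intron only. The cause of these sign changes was not tested.

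The count of the 9 genes lower by a factor of 2 was 1, and it was 0 with the exon-weighted value, a factor of 3, centring on the median gene, TPM over transcripts of at least 300 bases, the most abundant transcript only, or weighting by the principal coding transcript, and 2 with a pseudocount of 0.1, which sets the unlisted *Cxcl10* to 0. With a shared intron only it was 1, *Stat2* in place of *Gbp2*. With a pseudocount of 1 it was also 1, the unlisted *Cxcl10*, while *Gbp2* at -0.94 did not pass. TPM adds 0.15 to every log2 ratio. Of the other pathway genes, 15 were higher, and 1 with the exon-weighted value, a factor of 3 or the principal coding transcript, and 5 with the most abundant transcript or a shared intron only. A total of 10 were lower, and 6 with the exon-weighted value or the principal coding transcript, 5 with a factor of 3, 19 with a pseudocount of 0.1 and 16 with a pseudocount of 1. No paired analysis was possible because each group is 1 library, and no replicate could be left out.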
